A study of Mus musculus with 2 samples.

Results

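The mitochondrial ribosomal protein genes were followed in RNA from the thymus of newborn mice. They were chosen by name alone: protein-coding genes whose mouse symbol starts with Mrpl or Mrps and a digit, 77 of the 21474 protein-coding genes and 43346 mouse genes listed. Of these, 48 are named for the large subunit (Mrpl) and 29 for the small subunit (Mrps). Mrpl33 fits the name rule too and was not analysed here. The study sequenced RNA longer than 200 nt from postnatal day 0 thymus, strain B6NCrl, in 2 libraries with 13 pg of total RNA as input and spike-in RNA added. Pup 6 of a Charles River C57/Bl6 female gave replicate 1, and pup 7 gave replicate 2. The labels list 1 donor for both, give no sex, and name no other treatment or allele. Although the labels call the assay single-cell RNA-seq, the RNA was taken from tissue and diluted to what they call 1 cell equivalent, so each library mixes the transcripts of many cell types.

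Both libraries belong to 1 group, so levels and the spread between the libraries can be given, and no test between conditions. The spread holds pup, RNA handling and library preparation together. Mouse genes received 25999043 counts in replicate 1 and 31902773 in replicate 2, and spike-ins took 3.72% and 3.27% of all counts. All 8 thymocyte markers were read in both libraries, at a summed 5419 and 5162 TPM (a level corrected for transcript length and library depth). Thymic epithelial markers were read in both libraries for 4 of 5, the exception being Foxn1 with 0 and 1129 counts. Erythroid markers (5 of 5 read in both) summed to 3527 and 9132 TPM, and heart muscle markers (4 of 5 read in both) to 1134 and 306 TPM. Their part in the levels below was not tested. In such bulk RNA, fewer cells of a type and less RNA per cell cannot be told apart.

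The mitochondrial ribosome makes the few proteins that the mitochondrial genome encodes, all of them subunits of the respiratory chain and ATP synthase. Its ribosomal RNAs come from the mitochondrial genome, while all its proteins are encoded in the nucleus, made in the cytosol and imported. The small subunit binds the messenger RNA and decodes it, and the large subunit joins the amino acids and holds the exit tunnel for the new protein. Some of the proteins sit where bacterial ribosomes also have a protein, and the others were added in mitochondria. Some genes are placed by their symbols otherwise than in the structure: the products of Mrps30 and Mrps18a sit in the large subunit. The product of Mrps36 is a part of the oxoglutarate dehydrogenase complex and not a ribosomal protein.

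The start regions of 5 genes are shown here, since later paragraphs turn on them. For each start region, 80 bases before and 10 bases from the start given by RefSeq (build GRCm38.p6) are printed on the gene's strand. Mrpl58 (chr11:115403672-115403761, plus strand) had the highest mean level of all members, and capitals mark both copies of the core sequence CCGGAAG, which ETS factors bind. Mrps22 (chr9:98601670-98601759, minus strand) and Mrps2 (chr2:28467986-28468075, plus strand) were the only members without a read in either library. In Mrps22 capitals mark the same core, and Mrps2 has none of the 4 motifs searched within the bases printed. The last region (chr7:78783051-78783140, plus strand) holds the starts of Mrps11 and Mrpl46, which are transcribed away from each other. There the capitals mark the 41 bases between the RefSeq starts. In the GENCODE M21 annotation the starts cross by 412 bases, so the annotated genes overlap.
Mrpl58: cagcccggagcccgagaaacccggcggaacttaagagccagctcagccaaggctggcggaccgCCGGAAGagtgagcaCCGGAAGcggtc
Mrps22: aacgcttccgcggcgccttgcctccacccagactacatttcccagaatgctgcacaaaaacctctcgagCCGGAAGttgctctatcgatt
Mrps2: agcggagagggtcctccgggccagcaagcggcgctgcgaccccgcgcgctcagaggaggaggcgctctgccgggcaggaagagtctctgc
Mrps11-Mrpl46: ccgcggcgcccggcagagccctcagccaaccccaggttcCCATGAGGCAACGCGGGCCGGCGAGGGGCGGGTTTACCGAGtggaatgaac

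Almost all of these genes were read. A gene was called read at 1 or more expected counts, the estimated number of its reads. In both libraries 69 of the 77 were read, where 32.1% of all protein-coding genes were. In 1 library alone 6 were read, where 19.3% of protein-coding genes were. Neither library held 2 of them, and 48.6% of protein-coding genes were held by neither. Of the 48 large subunit genes, 47 were read in both libraries, 1 in just 1 library and 0 in neither. Of the 29 small subunit genes, 22 were read in both, 5 in just 1 library and 2 in neither. At a minimum of 10 counts the numbers were 44, 4 and 0 for the large subunit, and 21, 6 and 2 for the small subunit.

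Of the 8 members missing from a library, 6 are mitochondria-specific genes named for the small subunit. Among the 31 mitochondria-specific members, 24 were read in both libraries, 6 in just 1 library and 1 in neither. Among the 45 members with a bacterial counterpart, 44 were read in both, 0 in just 1 library and 1 in neither. The 12 mitochondria-specific genes named for the small subunit split into 6, 5 and 1, and the 19 named for the large subunit into 18, 1 and 0. Among the 12 are Mrps30, read in just 1 library, and Mrps18a, read in both, whose products sit in the large subunit. Mrps36 stands outside both classes and was read in both libraries. Over all 12 mitochondria-specific genes named for the small subunit, those at 0 included, the median was 69.2 TPM in replicate 1 and 50.9 TPM in replicate 2. The genes at 0 lower these medians, so they are not a result apart from the absences. The small subunit genes with a bacterial counterpart had medians of 74.0 and 115 TPM.

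**Figure D1:**
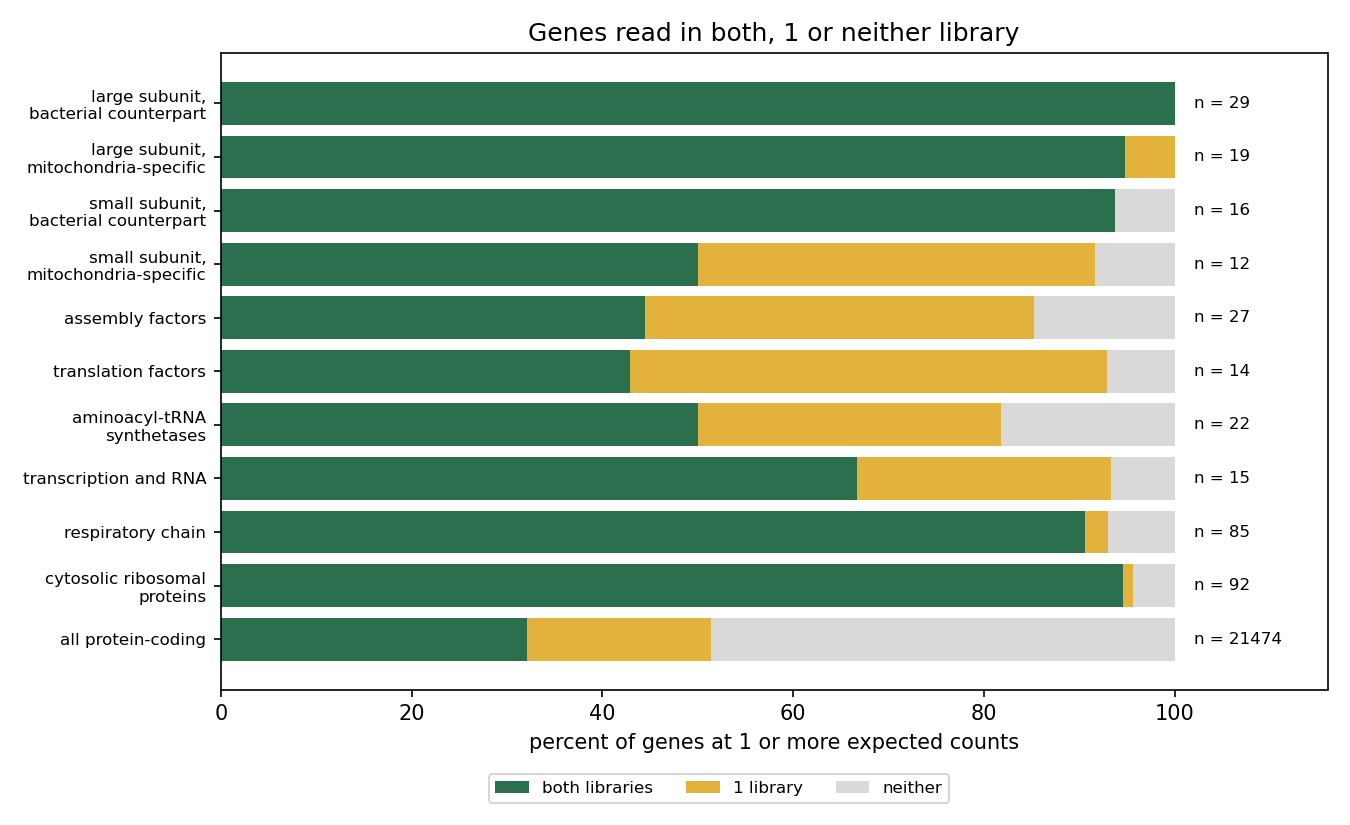
Percent of genes (x axis) read at 1 or more expected counts in both libraries, in 1 library or in neither, for classes of mitochondrial ribosomal protein genes (top 4 bars), other mitochondrial gene expression lists, 2 highly expressed gene families and all protein-coding genes. Subunits are those of the gene names. All 29 large subunit genes with a bacterial counterpart were read in both libraries, against 6 of the 12 mitochondria-specific genes named for the small subunit.

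Replicate 1 alone held Mrps30, whose product belongs to the large subunit in the structure, with 2145 counts in replicate 1 and 0 in replicate 2. A count of 0 allows up to 3 counts, so Mrps30 was at least 877-fold higher in replicate 1, per 1000000 mouse counts. Replicate 2 alone held Mrpl38, a protein of the central protuberance of the large subunit, with 0 and 633 counts, at least 172-fold higher in replicate 2. The other 4 genes read in replicate 2 alone are mitochondria-specific small subunit genes. Mrps34 had 0 and 1025 counts, and the difference was at least 278-fold. Mapk8ip3, which overlaps Mrps34 on the opposite strand, had 459 and 3446 counts, and Nme3, on the same strand, had 1795 and 0. Whether reads of Mapk8ip3 or Nme3 were counted for Mrps34 was not tested. Mrps35 had 0 and 421 counts, at least 114-fold apart. Mrps31 had 0 and 267 counts, at least 72.5-fold apart. Mrps25 had 0 and 40 counts, at least 10.9-fold apart. Nr2c2, which overlaps Mrps25 on the opposite strand, had 0 and 3007 counts. Whether reads of Nr2c2 were counted for Mrps25 was not tested. Human mutations in MRPS34 and MRPS25 are known from disorders of mitochondrial translation. These folds rest on 1 library per pup and cover counting error only, since the tables carry no molecular identifiers.

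Another 3 members were nearly absent from replicate 2. Mrpl44, which is needed to assemble the large subunit and is mutated in some human cardiomyopathies, had 2718 counts in replicate 1 and 1 in replicate 2. That is a 3335-fold ratio per 1000000 mouse counts (95% exact binomial interval 598 to 131781). Mrps15, a protein with a bacterial counterpart that contacts the small ribosomal RNA, had 1069 and 2 counts, a ratio of 656 (interval 181 to 5423). Mrpl22, a protein at the exit tunnel, had 300 and 2 counts, a ratio of 184 (interval 50.5 to 1527). Together with the 6 genes above, 9 members had 3 or fewer counts in just 1 library and 10 or more in the other, where 17.5% of all protein-coding genes did. Replicate 1 had the low value for 5 of the 9 and replicate 2 for 4. Mrpl45, which ties the large subunit to the inner membrane, was low in both libraries, with 5 and 45 counts.

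Mrps2 and Mrps22 had 0 counts in both libraries, which allows up to 0.115 counts per 1000000 mouse counts in replicate 1 and 0.0940 in replicate 2. Mrps2 (chr2:28468066-28471178, plus strand) belongs to the part of the small subunit shared with bacteria. Mrps22 (chr9:98588730-98601660, minus strand) is mitochondria-specific. Both are known in humans from combined respiratory chain deficiencies.

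How often a member was missing followed its level, as it did for other genes. Among the members read at least once, 3 or fewer counts in at least 1 library were seen for 2 of 3 with a mean under 10 TPM, where 84.0% of other protein-coding genes read had them. From 10 to 25 TPM it was 3 of 5 members, against 55.7% of the other genes. From 25 to 50 TPM it was 3 of 10 members, against 36.7%. From 50 to 100 TPM it was 1 of 17 members, against 13.5%. Above 100 TPM it was 0 of 27 members up to 200 TPM and 0 of 13 above that, against 3.43% and 0.189%. Each level class holds few members, and the mean TPM of a gene missing from 1 library is lowered by that absence. By name, 0 of 1 large subunit gene and 2 of 2 small subunit genes were low in a library under 10 TPM. The numbers were 2 of 4 and 1 of 1 from 10 to 25 TPM. They were 0 of 7 and 3 of 3 from 25 to 50 TPM, with Mrps30, a large subunit protein in the structure, among the 3. From 50 to 100 TPM the numbers were 1 of 10 and 0 of 7.

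**Figure D2:**
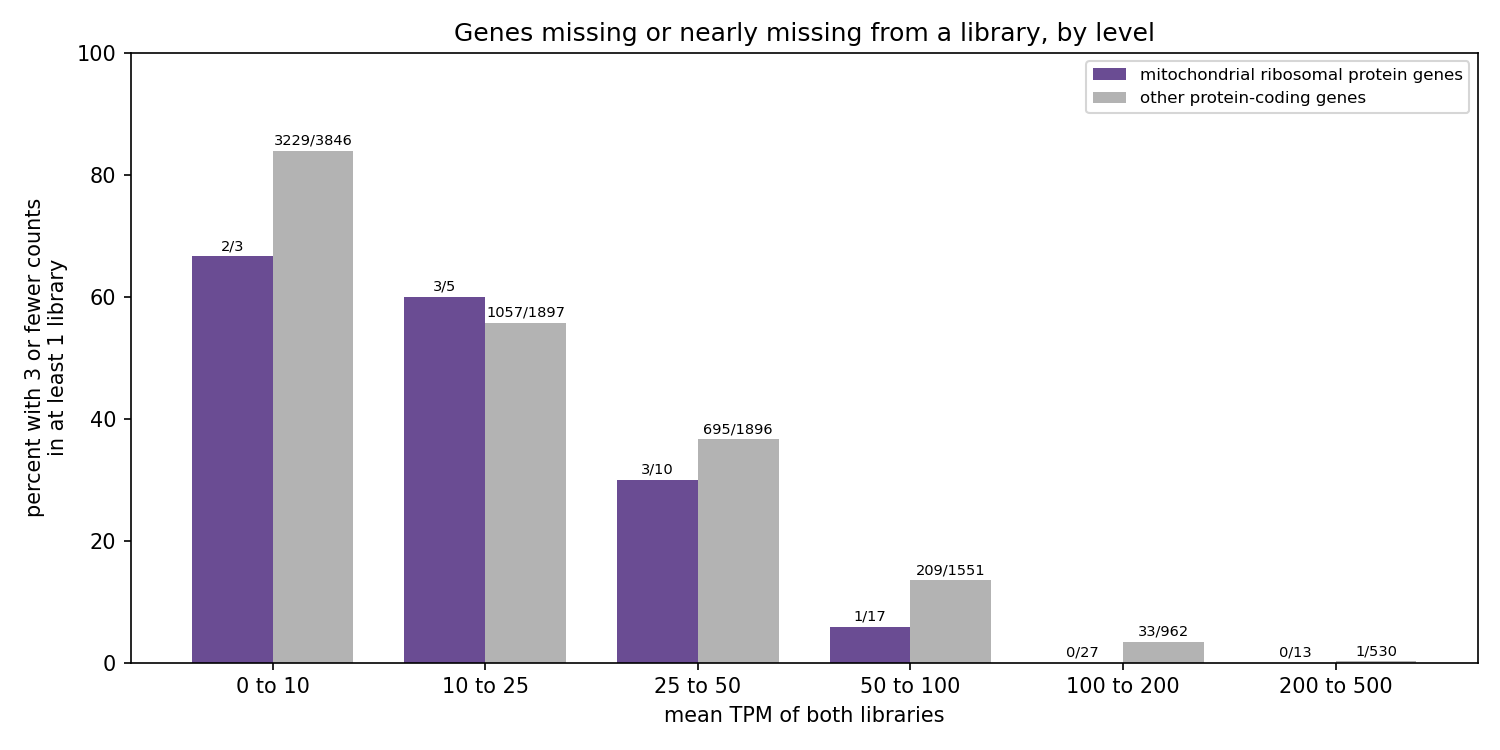
Percent of genes with 3 or fewer counts in at least 1 library (y axis) by mean TPM of both libraries (x axis), for mitochondrial ribosomal protein genes (left bar of each pair) and other protein-coding genes read at least once (right bar). Numbers above the bars give the genes low in a library over all genes of the class. Above 100 TPM, 0 of 27 and 0 of 13 members were low in a library.

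The members together took 0.622% of mouse counts in replicate 1 and 0.548% in replicate 2. They summed to 9403 TPM in replicate 1 and 8344 TPM in replicate 2 (8874 ± 749, mean ± SD, n = 2). Large subunit genes summed to 6386 and 5021 TPM (5703 ± 965, SD, n = 2) and small subunit genes to 3018 and 3323 TPM (3170 ± 215, SD, n = 2). The large subunit has more genes, and its sum was 2.12 times that of the small subunit in replicate 1 and 1.51 times in replicate 2. Per gene, the order changed with the library. The median large subunit gene stood at 104 TPM in replicate 1 and 85.1 TPM in replicate 2, and the median small subunit gene at 70.4 and 96.4 TPM. The large subunit median was thus 1.48 times the small subunit median in replicate 1 and 0.883 times in replicate 2, so no difference in level per gene between the subunits held in both libraries.

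In the large subunit, the highest mean level belonged to Mrpl58, a peptidyl-tRNA hydrolase that frees stalled mitochondrial ribosomes. Mrpl58 had 464 TPM in replicate 1 and 162 TPM in replicate 2. Mrpl30, which has a bacterial counterpart, had 217 and 382 TPM. Mrpl18 had 311 and 179 TPM, and Mrpl27, whose bacterial counterpart reaches the site where peptide bonds form, had 307 and 81.9 TPM. The other 4 of the 8 highest lay closer together in the libraries. Mrpl40 had 212 and 238 TPM, and Mrpl36, one of the smallest ribosomal proteins, had 247 and 200 TPM. Mrpl48 had 247 and 181 TPM, and Mrpl51 had 171 and 253 TPM.

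The lower end of the large subunit lay far below. Apart from Mrpl22 and Mrpl45, the lowest genes read in both libraries were Mrpl1, with 4.71 and 17.2 TPM, and Mrpl23, with 8.34 and 18.1 TPM. Mrpl1 forms a mobile stalk in ribosomes, and Mrpl23 sits at the exit tunnel. Over the 44 large subunit genes with 10 or more counts in both libraries, mean levels spanned 28.6-fold, and 28 of the 44 lay between 50 and 200 TPM. Genes of the factor-binding stalk, named here after their values were seen, did not share a level. Mrpl12 had 228 and 88.3 TPM, Mrpl10 had 105 and 108 TPM, and Mrpl11 had 37.7 and 14.1 TPM.

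In the small subunit, Mrps14 had the highest mean, with 201 TPM in replicate 1 and 355 TPM in replicate 2. Mrps18c had 117 and 422 TPM. Mrps16, which is mutated in a human respiratory chain disorder, had 435 and 95.6 TPM, and Mrps17 had 479 and 34.7 TPM. Mrps9 had 65.6 and 353 TPM. Each of these 5 genes has a bacterial counterpart. The other 3 of the 8 highest were Mrps33 with 209 and 203 TPM, Mrps24 with 201 and 170 TPM, and Mrps26 with 93.5 and 231 TPM. Mrps33 and Mrps24 were thus close in both libraries, while the genes above them were 1.77-fold or more apart.

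Among small subunit genes read in both libraries, the lowest besides Mrps15 were Mrps5 with 10.2 and 112 TPM, Mrps18a with 97.8 and 47.5 TPM, and Mrps7 with 82.4 and 69.3 TPM. The 21 small subunit genes with 10 or more counts in both libraries spanned 4.56-fold in mean level, and 15 of them lay between 50 and 200 TPM. That minimum left out all the genes of lowest mean level, which were missing or nearly missing from a library. Mrps30, the highest of those left out, had a mean of 35.2 TPM, against 60.9 TPM for Mrps5. The span therefore covers only the genes kept. Mrps18a, Mrps18b and Mrps18c are paralogues of 1 bacterial protein, the first placed in the large subunit and the other two in the small subunit. Mrps18b had 67.9 and 162 TPM. Replicate 1 had Mrps18c above Mrps18a above Mrps18b, while replicate 2 had Mrps18c above Mrps18b above Mrps18a. Mrps36 had 192 TPM in replicate 1 and 31.0 TPM in replicate 2.

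**Figure D3:**
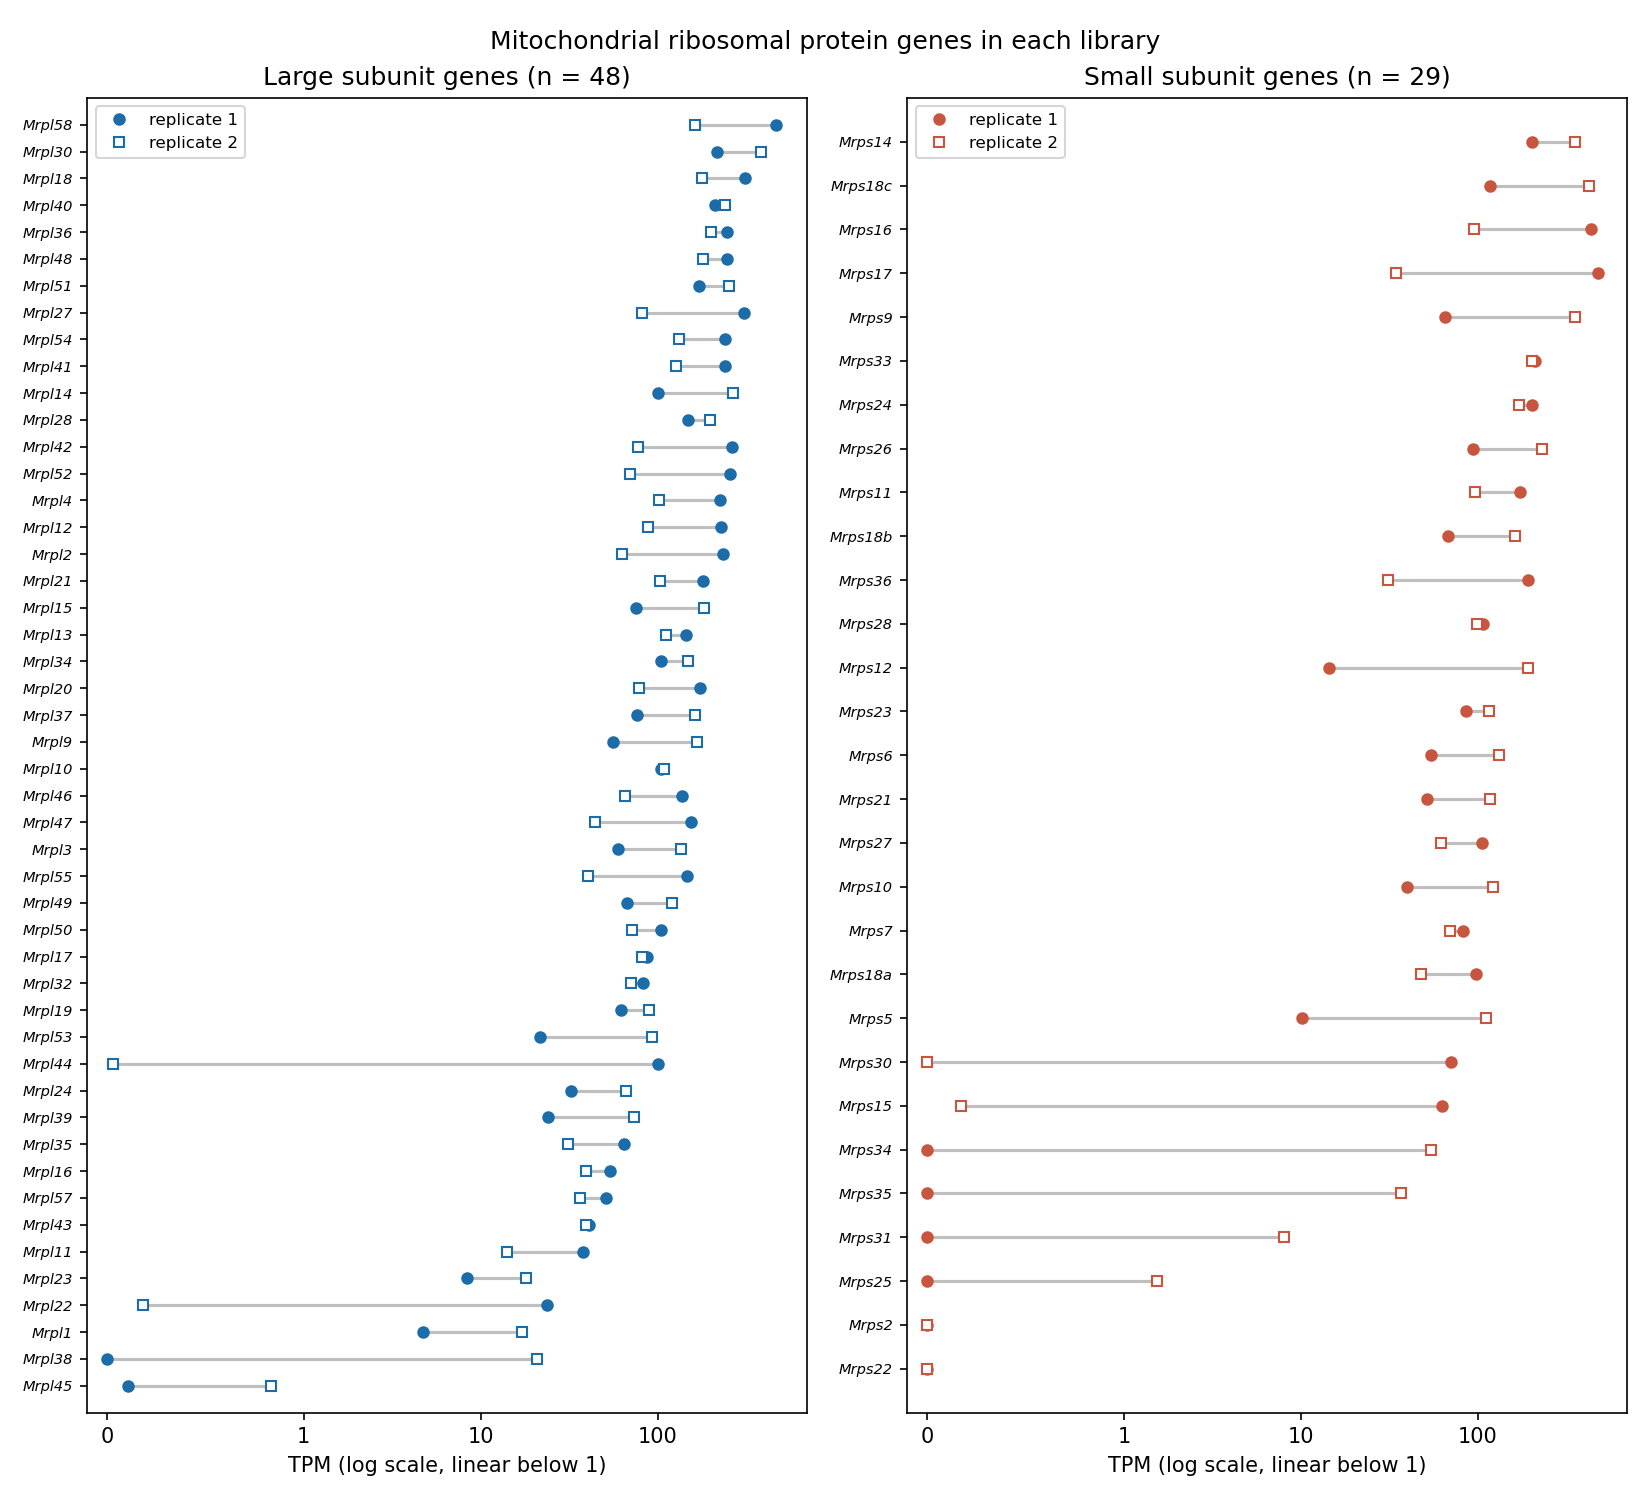
TPM (x axis, logarithmic above 1 and linear below) of each large subunit gene (left panel) and each small subunit gene (right panel) in replicate 1 (filled circles) and replicate 2 (open squares), ordered by mean TPM. Grey lines join the libraries. Members with a long line end near 0 in 1 library, among them Mrpl44, Mrps30 and Mrps34.

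Most members were within 4-fold in the libraries, and most of those that were not are named for the small subunit. Differences are given as the log2 ratio of replicate 1 over replicate 2 on the scale of TPM + 1, where the mean count was at least 100. Of 73 members with that many counts, 15 were at least 4-fold apart, where 50.5% of protein-coding genes and 50.9% of all mouse genes were. Of the 15, 7 were higher in replicate 1, where 21.2% of protein-coding genes were, and 8 in replicate 2, where 29.2% were. By name, the large subunit had 4 of its 47 genes past 4-fold and the small subunit 11 of its 26, Mrps30 and Mrps36 among them. With each gene placed as in the structure, 5 of 49 large subunit genes and 9 of 23 small subunit genes were past 4-fold. The median log2 ratio was 0.12 over the members and -0.17 over protein-coding genes. By subunit it was 0.38 in the large subunit and -0.62 in the small subunit. Members had a higher level than other genes, a median of 101 TPM over all members against 22.8 TPM over other protein-coding genes read, and the part of level in these shares was not tested.

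Genes named for the small subunit were also more often past 4-fold among those with many counts. With a minimum mean of 1000 counts, 1 of 41 genes named for the large subunit and 6 of 20 named for the small subunit were at least 4-fold apart. At that minimum 36% of protein-coding genes were. Mrps30 and Mrps36 are among the 6. The median log2 ratio of the genes named for the small subunit was 0.08 with that minimum and -0.62 with the lower one. The 0.08 includes Mrps30 (6.16), Mrps36 (2.59) and Mrps18a (1.03), which are not small subunit proteins in the structure. With each gene placed as in the structure, the median was -1.17 at the lower minimum. That median was not computed at the higher minimum, so the change of sign cannot be put down to the low genes alone. At the lower minimum, a mean of 100 counts, cytosolic ribosomal protein genes had 2 of 86 past 4-fold and respiratory chain genes 1 of 77.

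The 6 members most in favour of replicate 1 by log2 ratio were Mrpl44 (6.62), Mrps30 (6.16), Mrps15 (5.77), Mrpl22 (4.38), Mrps17 (3.75) and Mrps36 (2.59). Those most in favour of replicate 2 were Mrps34 (-5.79), Mrps35 (-5.24), Mrpl38 (-4.45), Mrps12 (-3.64), Mrps5 (-3.34) and Mrps31 (-3.18). Mrps12, the protein at the decoding centre, had 14.4 TPM in replicate 1 and 191 TPM in replicate 2. Its counts were 231 and 2741, so the gene was read well in both libraries. Mrps5, near the messenger RNA entry, had 95 and 1703 counts. The last 3 past 4-fold were Mrps16 (2.17), Mrps9 (-2.41) and Mrpl53 (-2.04).

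**Figure D4:**
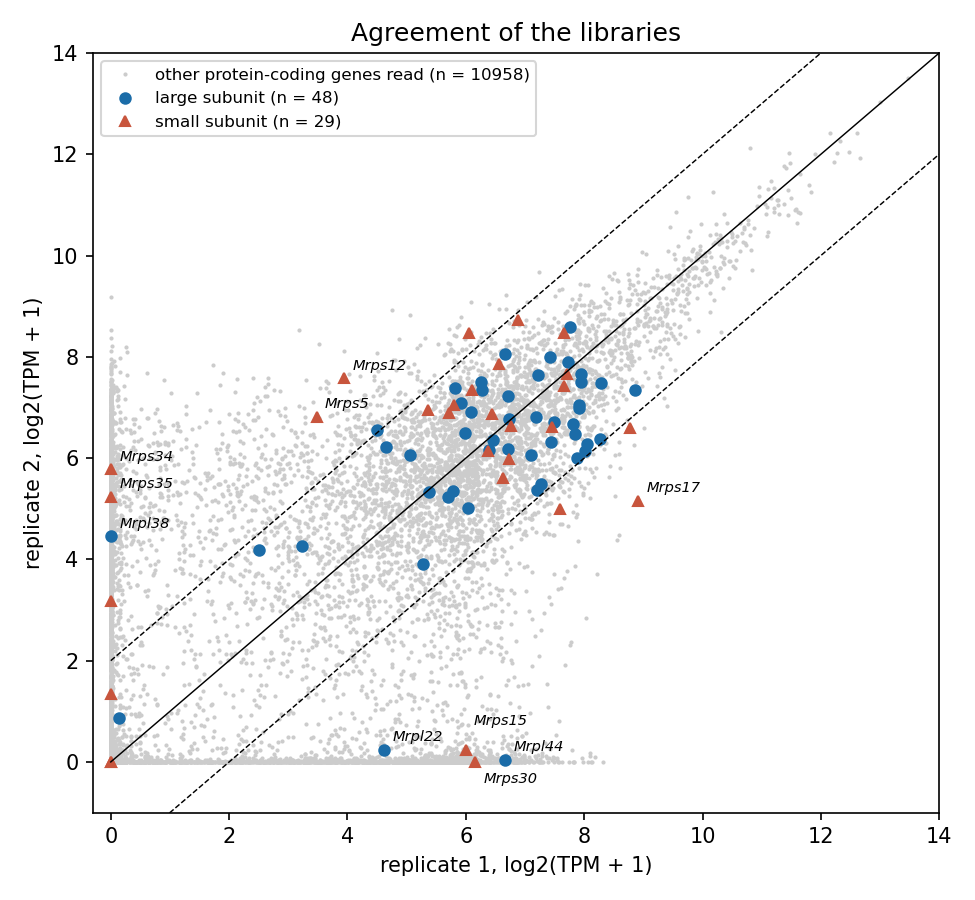
Level in replicate 1 (x axis) against replicate 2 (y axis), both as log2(TPM + 1), for large subunit genes (circles), small subunit genes (triangles) and the 10958 other protein-coding genes read at least once (grey dots). The solid line marks equal values and the dashed lines a 4-fold difference. Of the named genes, Mrpl44, Mrps30, Mrps15 and Mrpl22 lie along the bottom, and Mrps34, Mrps35 and Mrpl38 along the left edge.

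The order of the members differed between the libraries. Over the 65 members with 10 or more counts in both libraries, log2(TPM + 1) had Pearson's r of 0.316 and Spearman's rho of 0.216, a correlation across genes that are not independent. Their median distance was 2.05-fold. All 5558 protein-coding genes with that many counts had r of 0.622, rho of 0.645 and a median distance of 1.96-fold, near that of the members. Over 87 cytosolic ribosomal protein genes r was 0.872 and the median distance 1.23-fold, and these genes stood higher in level. The 10 highest members of replicate 1 and the 10 highest of replicate 2 had 1 gene in common, Mrpl36. Longer transcripts had lower TPM, with a Spearman's rho of -0.41 between effective length and mean TPM over the 75 members read. For counts in place of TPM, rho was 0.19.

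Members stood well below the genes of the cytosolic ribosome in level. Their median was 93.5 TPM in replicate 1 and 89.5 TPM in replicate 2. The median of 92 cytosolic ribosomal protein genes was 983 and 866 TPM, 10.5 and 9.68 times as high. For 85 nuclear respiratory chain genes the median was 369 and 388 TPM, 3.94 and 4.34 times as high. The 13 messenger RNAs of the mitochondrial genome, looked up after the members' values were seen, summed to 34728 TPM in replicate 1 and 37514 TPM in replicate 2. That was 3.69 and 4.50 times the sum of the members. Of the ribosomal RNAs that the members bind, mt-Rnr1 of the small subunit had 697 and 795 TPM and mt-Rnr2 of the large subunit had 4314 and 4264 TPM.

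Mitochondrial ribosomal proteins with other names were all read. Dap3, a GTP-binding protein of the small subunit, had 231 TPM in replicate 1 and 360 TPM in replicate 2. Chchd1 had 237 and 97.8 TPM and Aurkaip1 had 52.5 and 107 TPM, both also of the small subunit. Ptcd3, which helps to hold the messenger RNA, had 6.71 and 65.0 TPM. Gadd45gip1, at the exit of the large subunit, had 51.5 and 20.6 TPM. With these names and with each gene placed as in the structure, 24 of 30 small subunit genes were read in both libraries, 4 in just 1 library and 2 in neither.

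Other genes that build, load or serve the mitochondrial ribosome were counted in the same way. Beside their counts, 19.3% of all protein-coding genes were read in 1 library, and 37.8% of the other protein-coding genes read at least once. Of 14 translation factors, 6 were read in both libraries, 7 in just 1 library and 1 in neither. Replicate 2 alone held all 7 of these, among them Tufm, the elongation factor that brings aminoacyl-tRNA, with 0 and 1393 counts. The highest translation factors were Gfm1, an elongation factor, with 77.6 and 40.5 TPM, and the initiation factor Mtif3 with 65.6 and 51.7 TPM. The recycling factor Mrrf had 0 and 92.2 TPM, and Rmnd1 had 66.0 and 5.62 TPM. Summed levels of the 14 were 213 TPM in replicate 1 and 462 TPM in replicate 2.

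Of 27 assembly factors found, 12 were read in both libraries, 11 in just 1 library and 4 in neither. Ngrn had 93.2 and 108 TPM, C1qbp had 80.7 and 79.3 TPM, and Rpusd4, a pseudouridine synthase, had 77.0 and 61.9 TPM. Its relative Rpusd3 had 158 TPM in replicate 1 and 0 in replicate 2. The 22 genes for charging mitochondrial tRNAs split into 11, 7 and 4. Lars2, the leucyl-tRNA synthetase, was highest with 484 and 252 TPM, followed by Kars with 168 and 185 TPM, Gars with 47.5 and 178 TPM and Vars2 with 64.0 and 88.5 TPM. Kars and Gars also serve the cytosol. Of 15 transcription and RNA genes found, 10 were read in both, 4 in just 1 library and 1 in neither. Slirp had 35.0 and 288 TPM, Fastk 127 and 122 TPM, Hsd17b10 91.7 and 147 TPM, and the transcription factor Tfam 129 and 107 TPM.

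Mrpl23 has a copy to which the authors' estimate assigned most counts of the pair. Mrpl23-ps1 (chr2:74591330-74591909, minus strand) is a processed pseudogene, a copy of a messenger RNA put back into the genome. Its annotated transcript and Mrpl23-201 share a run of 540 bases with 0 mismatches, which covers all 438 coding bases. Below, bases 141 to 210 of Mrpl23-201 (gene at chr7:142532686-142540747, plus strand) stand over bases 1 to 61 of the pseudogene transcript. Capitals mark the start of the shared run, and the sequences come from GENCODE M21 transcripts.
Mrpl23-201: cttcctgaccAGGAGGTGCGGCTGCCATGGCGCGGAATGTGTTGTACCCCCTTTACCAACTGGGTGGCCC
Mrpl23-ps1: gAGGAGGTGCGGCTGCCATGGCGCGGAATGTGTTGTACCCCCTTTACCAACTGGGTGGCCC

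The authors' estimate gave Mrpl23 101 counts in replicate 1 and 248 in replicate 2, and the pseudogene 1588 and 3110. The pseudogene thus held 94.0% and 92.6% of the counts of the pair. The posterior SD of the Mrpl23 count was 52.3 and 77.7 counts. Mrpl23 and its pseudogene together had 170 and 298 TPM, which would rank the gene 8 among the members in place of 69. Which of the copies the reads came from is uncertain, and so is the low level of Mrpl23. Of the other members with 10 or more counts in both libraries, none had a posterior SD above 1.02% of its count.

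Windows of 100 bases were cut from each gene's coding transcript of largest TPM share, or the first by name if none had one. That transcript need not lead the gene, and Mrps25-203 held 0% and 11.55% of the TPM of Mrps25. A total of 4 members share more than 50% of these windows with another gene. Besides Mrpl23 these are Mrpl53 with Gm42688 (100%), Mrps25 with Gm42933 and Nr2c2 (72.0%), and Mrps18b with Gm13552 and Gm16279 (56.9%). Mrps34 follows with Mapk8ip3 (49.5%). Of the 77 members, 44 share no such window. Another gene overlaps 40 members in the genome, and for 22 of them that gene had 100 or more counts in a library. No strand setting is given in the sources used here, so reads of such overlapping genes may not be told apart. Mrpl44 overlaps the start of Wdfy1, which had 3050 and 330 counts.

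Transcript choice moved several levels. Of the 65 members with 10 or more counts in both libraries, 48 have 2 or more transcripts listed. Of these 48, 39 had the same leading transcript in both libraries and 9 another one in each: Mrpl20, Mrpl24, Mrpl55, Mrps5, Mrps10, Mrps11, Mrps12, Mrps17 and Mrps21. For Mrps12, Mrps12-204 made up 100% of the gene's TPM in replicate 1 and Mrps12-201 99.69% in replicate 2. For Mrpl24, Mrpl24-204 held 96.82% in replicate 1 and Mrpl24-202 held 99.5% in replicate 2. For Mrps17, Mrps17-201 held 67.65% in replicate 1 and Mrps17-206 held 98.5% in replicate 2.

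These choices change the transcript length that a count is divided by. Mrps17 had an effective length of 799.8 bases in replicate 1 and 2056 bases in replicate 2. It was 13.8-fold higher in replicate 1 by TPM, and 5.83-fold by counts per 1000000 mouse counts. Mrps10 had 342.6 and 1234 bases, and was 3.05-fold higher in replicate 2 by TPM and 10.1-fold by counts. Mrpl58 had 495.3 and 1016 bases, and was 2.86-fold higher in replicate 1 by TPM and 1.51-fold by counts. For 5 of the 65 members the ratios by TPM and by counts were more than 1.5-fold apart, and Mrpl17 and Mrpl48 are the other two.

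**Figure D5:**
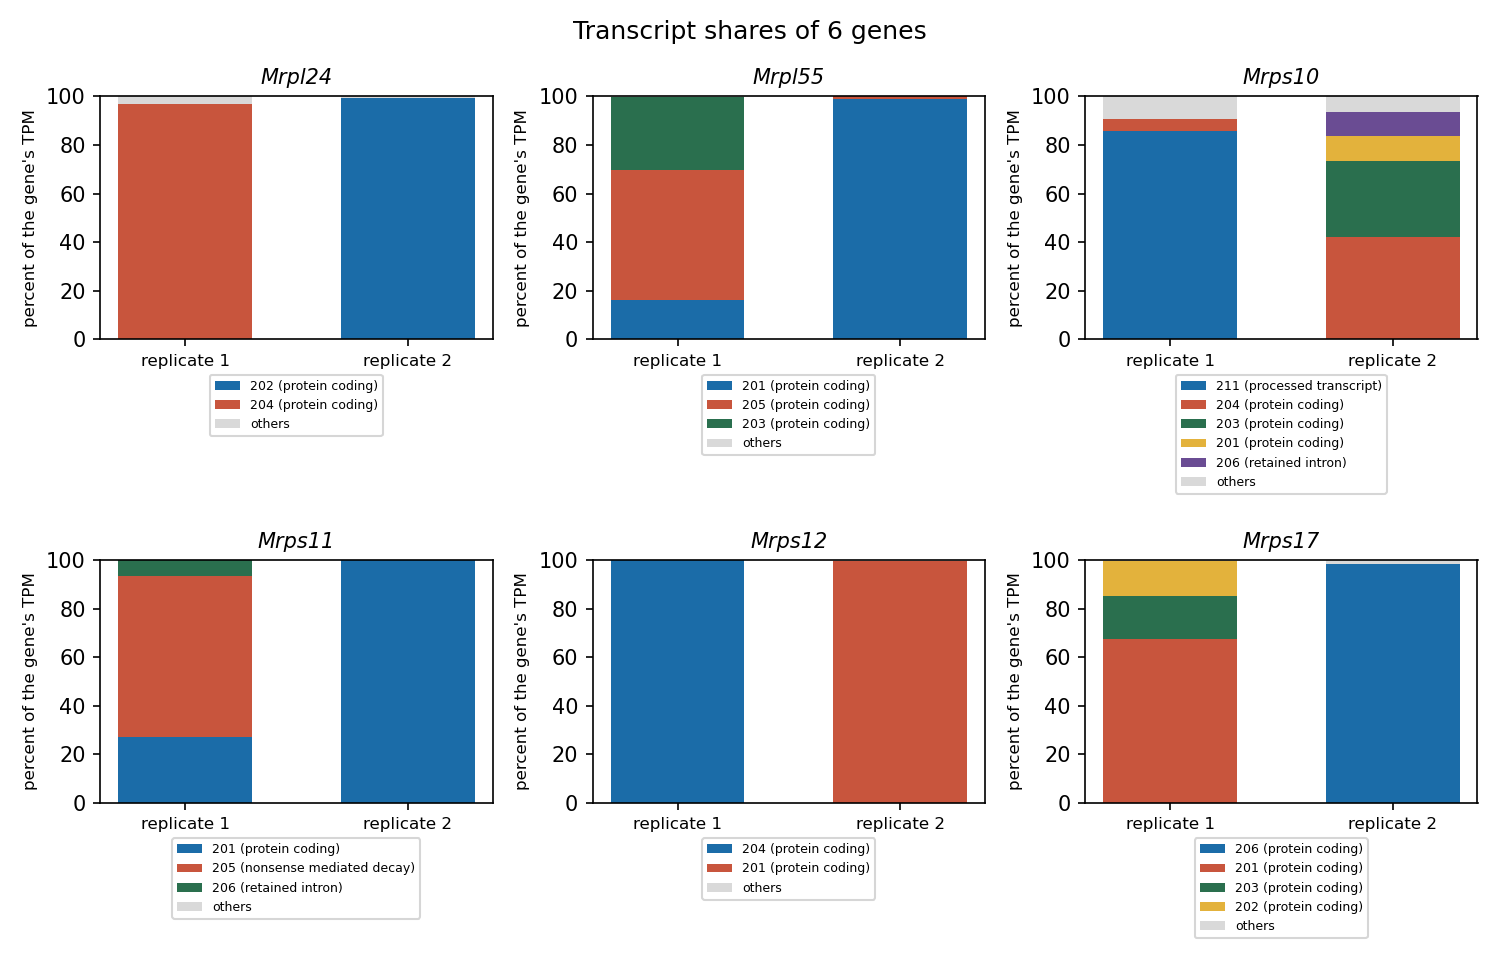
Percent of the gene's TPM (y axis) that each transcript held in replicate 1 (left bar) and replicate 2 (right bar), for 6 of the 9 genes whose leading transcript differed between the libraries. Transcripts under 5% in both libraries are joined as others, and types in brackets are those of GENCODE M21. In Mrps10, others also holds Mrps10-207 (up to 9.21%) and Mrps10-202 (up to 5.9%). The leading transcript of Mrps12 held 100% in replicate 1 and another held 99.69% in replicate 2.

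Transcripts annotated in M21 as not coding led in some members. Coding transcripts held under 50% of the gene's TPM in at least 1 library for 16 of the 65 members, and in both libraries for 10. They held 90% or more in both libraries for 42. Mrps14, highest of the small subunit, had 94.09% and 94.16% in Mrps14-201, annotated as a target of nonsense-mediated decay. Mrps26 had 95.62% and 95.47%, and Mrps24 had 89.1% and 83.08%, in transcripts with a retained intron. Mrps11 had 66.65% in the decay target Mrps11-205 in replicate 1 and 100% in the coding Mrps11-201 in replicate 2. The tables were made on another annotation release (M4), so these types need not be those the authors used. For Mrpl32 the coding transcript Mrpl32-202 of M21 has no entry, and the only transcript listed, Mrpl32-201, is a decay target. The coding share of Mrpl32, 0% in both libraries, was thus fixed, and the gene is among the 16 and the 10.

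Many of the genes start next to another gene that runs the other way. A start within 1000 bases of the start of a protein-coding gene on the opposite strand was found for 33 of the 77 members (42.9%). Of other protein-coding genes 10.8% had one, and of those read at least once 15.9%. The large subunit had 24 of 48 and the small subunit 9 of 29. Mrps11 and Mrpl46 are partners of each other. Mrps11 had 2724 and 2130 counts and Mrpl46 had 2835 and 1531 counts. These genes overlap in M21, and whether reads of either were counted for the other was not tested. Of the 31 partners outside the family, 14 had 10 or more counts in both libraries, and 8 had 3 or fewer in just 1 library and 10 or more in the other. Of all 21474 protein-coding genes, 5558 and 3748 did, the latter 17.5%.

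Several partners serve mitochondria or protein synthesis, and are named after their values were seen. Mrps12 faces Sars2, the mitochondrial seryl-tRNA synthetase, with 434 and 422 counts. Mrpl36 faces the complex I gene Ndufs6, with 6275 and 3814 counts, and Mrpl47 faces the complex I gene Ndufb5, with 3179 and 5168 counts. Mrpl43 faces Twnk, the helicase of mitochondrial DNA, with 0 and 1853 counts. Mrpl49 faces Fau, which encodes a cytosolic ribosomal protein, with 8958 and 7371 counts.

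RefSeq start regions were found for 68 of the 77 members and searched from 250 bases before to 50 bases after the start, on both strands, for 4 motifs. The ETS core CCGGAAG was in 25 of the 68 members (36.8%), against 13.4% of other protein-coding genes and 20.4% of those read at least once. The NRF1 motif (GCGC, any base, then TGCGC) was in 13 (19.1%), against 7.45% and 11.7%. NRF1 is a factor known to act on nuclear genes for mitochondria. The YY1 motif AAGATGGCG was in 8 (11.8%), against 2.23% and 3.67%. The TATA box TATAAA was in 5 (7.35%), against 14.2% and 9.11%. The motifs were counted independently of each other and a match describes letters, not a bound site. Their median GC content was 58.2%, against 57% in other protein-coding genes. Of the 25 members with the ETS core, as in the Mrpl58 and Mrps22 sequences above, 24 were read in both libraries, and of the 43 without it 39 were. Median mean levels were 115 TPM with the core and 93.5 TPM without.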

How the data were processed

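Per the file headers, each library has a deposited gene table and a deposited transcript table with expected counts (estimated reads that need not be whole), TPM, posterior means, the posterior SD of the count and, for transcripts, the percent of the gene's TPM. In the deposited tables TPM sums to 1000000 over genes and spike-ins, and effective length lies 99 bases below length. The deposited text notes name mm10 and annotation M4. What aligner and counter the authors ran was not given in the sources used here.

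The 43346 mouse gene IDs were matched without version to GENCODE M21 on GRCm38, and 42462 were found. TPM was rescaled to 1000000 over mouse genes. Ratios set replicate 1 over replicate 2 as log2(TPM + 1), where the mean count was at least 100. Bounds use a floor of 3 counts and intervals are exact binomial at 95%. No p-value is given, since there is 1 group of 2 libraries. The members and lists were chosen with earlier results of these data known. A gene was placed in the bacterial class where bacterial ribosomes have the same protein. Named members were, in each subunit, the 8 highest by mean TPM and the 4 lowest among those read in both libraries, those at 3 or fewer counts in 1 library and 10 or more in the other, those at 0, the 6 of largest ratio each way, Mrps18a, Mrps18b, Mrps18c, Mrps30 and Mrps36. From other lists up to 4 genes were named by mean TPM, and all 5 mitochondrial ribosomal proteins with other names. Any other gene named was chosen after its values were seen. Motifs and partners come from RefSeq and M21. Expected counts were rounded for edgeR 4.0.16 (TMM), DESeq2 1.42.0 (size factors) and thinning. The ratio call was run on simulated counts whose spread was counting error only. Such counts cannot show how the call behaves with the wider spread between these libraries.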

Additional observations from a re-analysis of the deposited data

How the results depend on the processing

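The numbers of members read in both libraries (69) and in neither (2) stayed within 1.5 times of the values given under every detection level tried, and 10 members in place of 6 were read in 1 library when 10 counts were required. Placing each gene by the structure put the summed level of the small subunit at 2951 TPM in place of 3170 TPM. At least 4-fold apart were 7 members of 61 with a minimum mean of 1000 counts, and 44 of 73 were at least 2-fold apart, where 36% and 67.7% of protein-coding genes were. Each library alone gave large subunit sums of 5021 to 6386 TPM and medians of 85.1 to 104 TPM, and small subunit sums of 3018 to 3323 TPM and medians of 70.4 to 96.4 TPM. Over 438 recomputed ratios of single members (other pseudocounts, posterior means, TPM as deposited, counts scaled with edgeR or DESeq2), 10 crossed the 4-fold line. Of these ratios, 2 turned direction, both of Mrpl48, with a log2 ratio of 0.45 by TPM, -0.35 with edgeR TMM and -0.40 with DESeq2 size factors. Among members reported as at least 4-fold apart, 0 turned. Adding the pseudogene to Mrpl23, an alternative chosen after seeing the data, left the large subunit sum and median within the spread between the libraries. No paired analysis was possible because both libraries belong to 1 group. The cause of the absences from a library was not tested.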
